A study of Mus musculus with 24 samples.

Results

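Interferon-stimulated genes were followed in cells sorted from mouse liver. The set held 41 genes, chosen by symbol from a list of genes that type I or type II interferon induces. It was split into 30 genes that respond mainly to type I interferon and 11 that respond mainly to type II interferon (5 guanylate-binding proteins, 3 immunity-related GTPases, Irf1, Cxcl9 and Cxcl10). All 41 of the 45792 listed genes carried values other than 0. All 41 were also among the 14227 genes tested, which had a mean log2 value of at least 4.

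The cells came from livers of female C57BL/6 mice that ate a methionine- and choline-deficient diet (MCD), which produces steatohepatitis, for 2 weeks. Every group shared that diet, so there was no group on a normal diet and none without liposomes. The mice received an intravenous dose of liposomes labelled with DiI, a lipophilic dye, either empty or carrying curcumin, a plant polyphenol. At 24 hours, CD11c+ MHC class II+ cells were sorted as DiI-positive (liposome taken up) or DiI-negative. This gave 4 groups of 3 libraries, 1 for each gate under each liposome. The age of the mice and whether a library held cells of 1 mouse or of a pool are not stated in the sources used here.

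Type I interferons signal through the receptor Ifnar1-Ifnar2 and the kinases Jak1 and Tyk2 to a transcription factor complex that includes Stat2 and Irf9 and binds the interferon-stimulated response element (ISRE). Type II interferon (Ifng) signals through Ifngr1-Ifngr2, Jak1 and Jak2. Many genes answer both signals, since Irf1, itself induced by type II interferon, also binds ISRE-like sequence. In dendritic cells and macrophages the response adds viral sensors, antiviral effectors, antigen presentation and chemokines that attract T and NK cells.

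The ISRE is visible in the promoters of several members whose values are described below, and these stretches are shown because they carry the element that the type I and type II sets share. RefSeq promoter windows of GRCm38.p6 (250 bases before to 50 after the gene start, 300 bases) were found for 31 members, 22 of the type I set and 9 of the type II set. The ISRE was searched as GAAANNGAAA on both strands, and matches may overlap each other. Capitals mark the ISRE letters, on either strand.
Ifitm3: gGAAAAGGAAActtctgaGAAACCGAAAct
Ifit1: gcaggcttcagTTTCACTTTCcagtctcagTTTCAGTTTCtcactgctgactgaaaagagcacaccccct
Oas3: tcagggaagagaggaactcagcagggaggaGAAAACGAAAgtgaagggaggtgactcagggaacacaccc
Irgm1: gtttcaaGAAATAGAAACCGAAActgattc
Isg15: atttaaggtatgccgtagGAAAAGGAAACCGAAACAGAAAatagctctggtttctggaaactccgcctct
Cxcl10: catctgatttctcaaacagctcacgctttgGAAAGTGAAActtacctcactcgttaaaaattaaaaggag
Gbp5: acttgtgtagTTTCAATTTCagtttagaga

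All are given 5′ to 3′ on the strand of their gene. The Ifitm3 stretch lies at chr7:141010714-141010743 (minus strand), the Irgm1 stretch at chr11:48871428-48871457 (minus) and the Gbp5 stretch at chr3:142496759-142496788 (plus), each inside the gene as GENCODE M21 annotates it. Those of Ifit1 at chr19:34640774-34640843 (plus), Oas3 at chr5:120777695-120777764 (minus), Isg15 at chr4:156200845-156200914 (minus) and Cxcl10 at chr5:92349063-92349132 (minus) lie upstream of the annotated gene. Isg15 has 3 overlapping ISRE matches in 1 run, and Ifitm3, Ifit1 and Irgm1 have 2 each. ISRE letters were present in 12 of 22 type I windows (54.55%) and 7 of 9 type II windows (77.78%), against 3.99% of the 27025 genes of the table. The motif was therefore found in members of both sets and does not separate the type I from the type II list. A match describes letters in this window and is not evidence of binding.

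The values are log2 values that the authors deposited. They look like a shrunken scale, though the sources used here name no transform. On such a scale a difference of 1 corresponds to a doubling for well-expressed genes and understates the change of low ones. Differences are given ± SE from a limma fit over all 14227 genes, and a gene passed the threshold at a Benjamini-Hochberg adjusted p under 0.05. Total reads per library are unknown from the values. A relative depth index was inferred from 1009 genes whose values look like a single count in 1 library. It assumes that libraries without a count lie below the gene's mean in proportion to depth, which was not checked against counts. The index ran from 0.728 to 1.139 in DiI-positive libraries and from 1.008 to 1.204 in DiI-negative libraries. A list of 6 genes was made for the sorted cells (Itgax, H2-Ab1, H2-Aa, Cd74, Flt3 and Zbtb46), and all were among the genes tested. The sort itself used only CD11c (Itgax) and MHC class II, so Flt3 and Zbtb46 were not sorting markers. The summed level of the 6 genes lay between 19.74 and 20.15 in the 12 libraries. Summed levels, here and below, are the log2 of the sum of unlogged levels, which the most abundant genes dominate. All 6 had negative estimates in DiI-positive against DiI-negative libraries, and 3 of the 6 passed the threshold. These were H2-Ab1 at -0.22 ± 0.06 (limma adjusted p = 0.0358) and Flt3 and Zbtb46, which mark dendritic cells, at -1.65 ± 0.32 (limma adjusted p = 0.00732) and -1.81 ± 0.51 (adjusted p = 0.0400). Kupffer cell markers stood higher there, with summed levels of 14.59 to 16.39 against 13.41 to 13.85 and Clec4f higher by 4.52 ± 0.40 (adjusted p = 0.000153).

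Interferon-stimulated genes that differed between the gates were lower in the cells that had taken up liposomes. Averaged over both liposomes, 7 of 41 members fell and none rose at the threshold (limma), and 9 had an unadjusted p under 0.05, 7 of them lower and 2 higher (22.0%, against 26.5% of all genes in either direction). The 7 were the antiviral effectors Ifitm3, Mx1, Ifit1 and Oas3, the feedback protease Usp18, Ifi35 and the immunity-related GTPase Irgm1. This is 17.1% of the members, against 6.56% of all genes tested that were lower and 5.54% that were higher. Of the type I set 6 of 30 fell (20.0%), and of the type II set 1 of 11 (9.09%). The median difference was -0.19 over the type I genes and 0.02 over the type II genes, against 0.01 over all genes tested. The difference between the sets was not tested. Without Igtp, Irgm1 and Cxcl10, which type I interferon also induces strongly, the type II median was 0.13. Those genes had the lowest estimates of the type II set, so leaving them out had to raise the median. With relative depth as a covariate the median without them was -0.003.

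**Figure D1:**
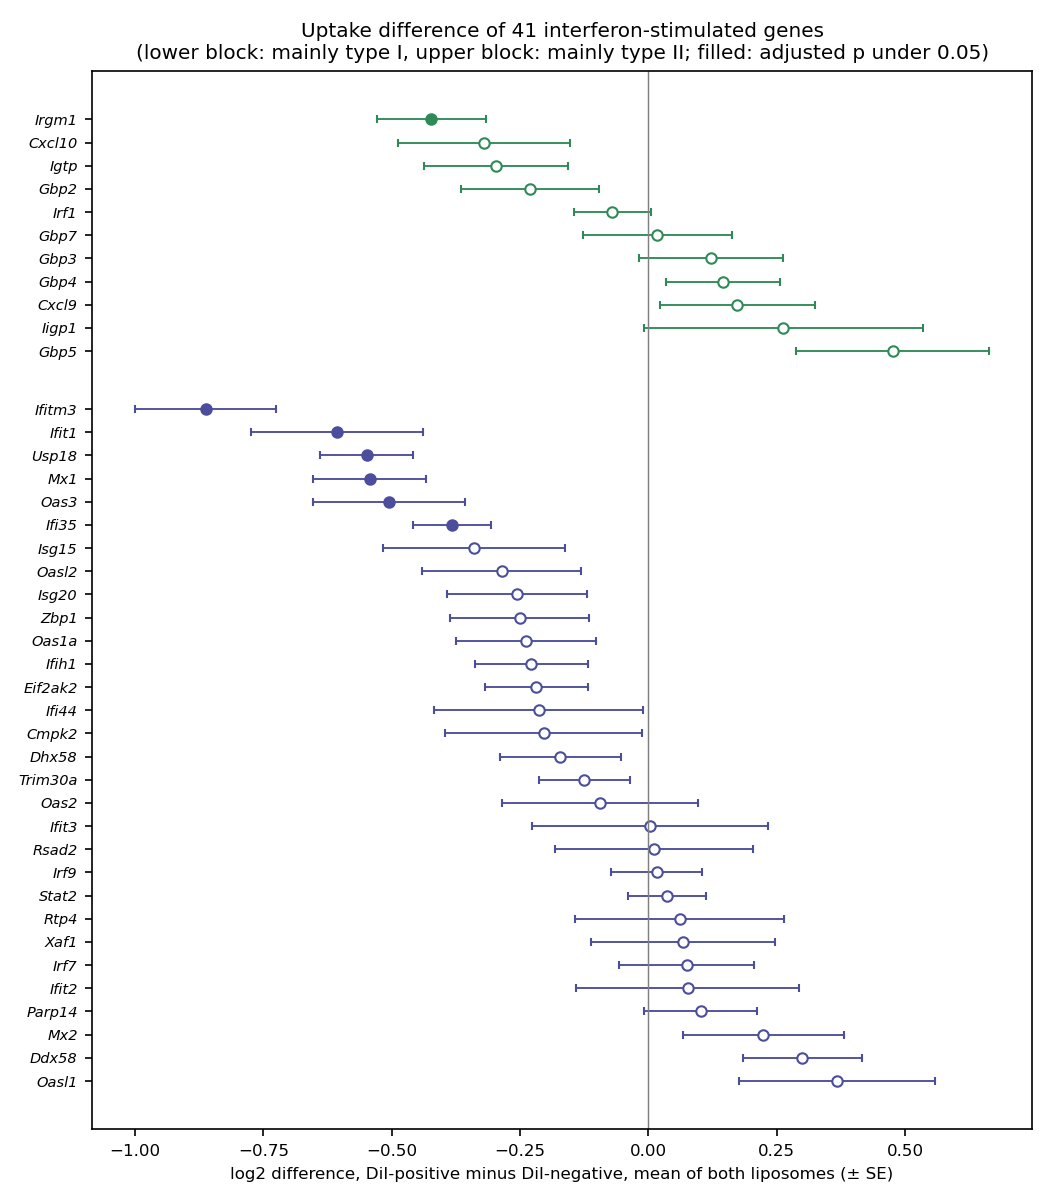
Difference between DiI-positive and DiI-negative libraries for each of the 41 members, averaged over both liposomes (horizontal axis, log2 difference with ± SE; filled points have an adjusted p under 0.05). The filled points are the 6 type I genes and Irgm1, all left of 0, and the type II genes spread from -0.42 (Irgm1) to 0.48 (Gbp5).

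Ifitm3, a membrane protein that blocks virus entry from endosomes, showed the largest difference of any member in the averaged uptake comparison. Its log2 levels were 13.55, 13.61 and 13.62 in DiI-negative cells after empty liposomes and 13.79, 14.19 and 13.32 after curcumin liposomes. In DiI-positive cells they were 12.55, 12.66 and 12.93 after empty and 13.19, 12.70 and 12.86 after curcumin liposomes. All 6 DiI-positive libraries lay below all 6 DiI-negative ones. The averaged difference was -0.86 ± 0.14 (limma adjusted p = 0.00265), with -0.88 ± 0.19 after empty liposomes (adjusted p = 0.0368) and -0.85 ± 0.19 after curcumin liposomes (adjusted p = 0.0406).

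Usp18 removes the ubiquitin-like modifier Isg15 from proteins and damps signalling at the type I receptor. Its levels were 11.32, 11.61 and 11.65 in empty DiI-negative and 11.71, 11.82 and 11.58 in curcumin DiI-negative libraries. They were 10.96, 11.08 and 11.12 in empty DiI-positive and 10.85, 11.16 and 11.22 in curcumin DiI-positive libraries. Again the 2 gates did not overlap in any library, and the averaged difference was -0.55 ± 0.09 (adjusted p = 0.00323). Within the empty groups it was -0.47 ± 0.13 (adjusted p = 0.0761), which missed the threshold, and within the curcumin groups -0.62 ± 0.13 (adjusted p = 0.0264).

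Ifi35, an interferon-induced leucine zipper protein, was the third member whose gates did not overlap. It ran from 11.28 to 11.35 in empty DiI-negative and from 11.32 to 11.60 in curcumin DiI-negative libraries. The corresponding ranges were 11.06 to 11.14 and 10.80 to 11.08 in DiI-positive libraries. The averaged difference of -0.38 ± 0.08 was small but exceeded the spread between libraries (adjusted p = 0.00802). These 3 members without overlap are 7.32% of the set, against 3.52% of all genes tested for which all 6 DiI-positive libraries were the lower ones. In either direction 6.04% of all genes did not overlap, a share close to that of the members, and no member was higher in this way.

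Mx1 and Mx2 belong to the dynamin-like antiviral GTPases, and inbred strains such as C57BL/6 carry an Mx1 allele that makes no functional protein. Mx2 is annotated in GENCODE M21 as a polymorphic pseudogene. Mx1 levels were 10.54, 10.35 and 10.77 in empty DiI-negative and 10.83, 11.09 and 10.79 in curcumin DiI-negative cells. They were 10.31, 9.99 and 10.20 in empty DiI-positive and 9.94, 10.24 and 10.42 in curcumin DiI-positive cells. Only curcumin DiI-positive replicate 3 overlapped the DiI-negative range. The averaged difference was -0.54 ± 0.11 (adjusted p = 0.00927), and within the curcumin groups it was -0.70 ± 0.16 (adjusted p = 0.0354). Within the empty groups it was -0.39 ± 0.16 (adjusted p = 0.222). Mx2, its neighbour on chromosome 16, had an averaged difference of 0.22 ± 0.16 (adjusted p = 0.402).

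Ifit1 binds viral RNA that lacks the host cap marks. Its levels were 9.72, 10.27 and 10.04 in empty DiI-negative libraries and 8.73, 9.47 and 9.02 in empty DiI-positive libraries. After curcumin liposomes they were 9.50, 9.81 and 9.05 in DiI-negative and 8.94, 9.34 and 9.25 in DiI-positive libraries. The gates were thus apart after empty liposomes and overlapped after curcumin liposomes. The averaged difference was -0.61 ± 0.17 (adjusted p = 0.0372), and neither liposome alone passed the threshold (-0.94 ± 0.24 with adjusted p = 0.0599 after empty and -0.28 ± 0.24 with adjusted p = 0.586 after curcumin liposomes).

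Oas3 makes the oligoadenylates that switch on RNase L. It stood at 10.27, 10.43 and 10.39 in empty DiI-negative and 10.72, 10.68 and 9.76 in curcumin DiI-negative cells, and all 6 DiI-positive libraries lay between 9.80 and 10.01. The low value in the DiI-negative gate was that of curcumin replicate 3. The averaged difference was -0.51 ± 0.15 (adjusted p = 0.0464).

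Irgm1, which controls vesicle and autophagy traffic around intracellular microbes, was the 1 type II member past the threshold. Its levels were 11.74, 12.20 and 12.21 in empty DiI-negative and 12.29, 12.52 and 12.12 in curcumin DiI-negative cells. They were 11.60, 11.95 and 11.88 in empty DiI-positive and 11.64, 11.69 and 11.80 in curcumin DiI-positive cells. The groups overlapped after empty liposomes and did not after curcumin liposomes. The averaged difference was -0.42 ± 0.11 (adjusted p = 0.0253), and the curcumin groups alone gave -0.60 ± 0.15 (adjusted p = 0.0562).

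**Figure D2:**
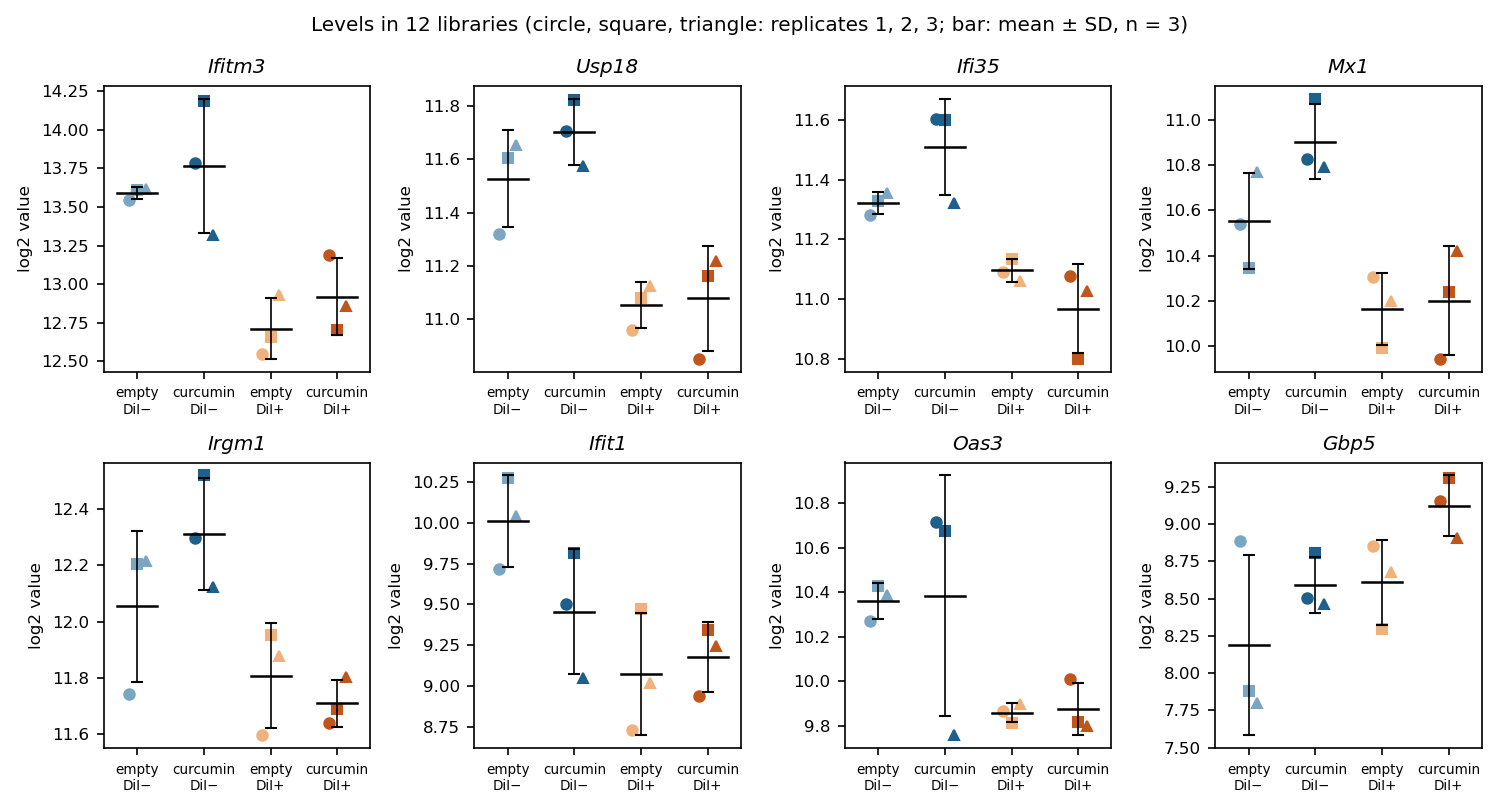
Log2 level (vertical axes) in each of the 12 libraries for the 7 members that passed the threshold and for Gbp5 (points are libraries, bars mean ± SD, n = 3 per group). The DiI-positive libraries lie below the DiI-negative ones without overlap for Ifitm3, Usp18 and Ifi35, and the Gbp5 groups overlap, with empty DiI-negative replicate 1 at 8.89 and empty DiI-positive replicate 2 at 8.30.

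Of the 7 members, Ifitm3, Usp18, Mx1 and Ifi35 kept their call whichever library was left out. Leaving out empty DiI-negative replicate 2 or 3, curcumin DiI-negative replicate 1 or 2, empty DiI-positive replicate 1 or curcumin DiI-positive replicate 2 lowered the count from 7 to 4. With relative depth as a covariate, Mx1 and Ifi35 (adjusted p = 0.0946 and 0.0681) and Oas3 (0.1633) lost their call and Igtp gained one. Oas3 passed under 6 of 22 alternatives, Ifit1 under 13 and Irgm1 under 15, each with the same sign.

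The type II set did not share 1 direction. Gbp5, which promotes inflammasome assembly and attack on microbial membranes, had levels of 8.89, 7.88 and 7.80 in empty DiI-negative and 8.51, 8.80 and 8.47 in curcumin DiI-negative cells. They were 8.85, 8.30 and 8.68 in empty DiI-positive and 9.15, 9.31 and 8.90 in curcumin DiI-positive cells. The averaged difference of 0.48 ± 0.19 did not pass (adjusted p = 0.128). Without empty DiI-negative replicate 1, the 1 high library of its group, it was 0.65 (adjusted p = 0.0165). Gbp2, Gbp3, Gbp4 and Gbp7, of the same GTPase family, had differences of -0.23 ± 0.13, 0.12 ± 0.14, 0.15 ± 0.11 and 0.02 ± 0.15. None of these 4 passed, and the smallest adjusted p among them was 0.307 (Gbp2). Igtp, an immunity-related GTPase like Irgm1, stood at -0.30 ± 0.14 (adjusted p = 0.204), and Iigp1, of the same family, at 0.26 ± 0.27. Cxcl9 and Cxcl10, ligands of the receptor CXCR3 on T and NK cells, stood at 0.17 ± 0.15 and -0.32 ± 0.17 (adjusted p = 0.513 and 0.252). Irf1, the transcription factor, differed by -0.07 ± 0.08 (adjusted p = 0.600), within the spread between libraries.

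The factors that carry the type I signal differed little between the gates. Stat2 was at 0.04 ± 0.08, Irf9 at 0.02 ± 0.09 and Irf7, the factor that amplifies type I interferon production, at 0.07 ± 0.13, with adjusted p of 0.814, 0.935 and 0.772. Irf7 ran from 12.75 to 13.36 in empty DiI-negative and from 12.94 to 13.52 in empty DiI-positive cells, so the groups overlapped over most of their range. Among the sensors, Ddx58 (RIG-I) had the highest estimate, 0.30 ± 0.12 (adjusted p = 0.121). The other sensors had negative estimates. Ifih1 (MDA5) was at -0.23 ± 0.11, Dhx58 (LGP2) at -0.17 ± 0.12, the nucleic acid sensor Zbp1 at -0.25 ± 0.14 and the RNA-activated kinase Eif2ak2 at -0.22 ± 0.10, and none passed.

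The remaining effectors ranged from -0.34 ± 0.18 for Isg15, the modifier that Usp18 removes, to 0.37 ± 0.19 for Oasl1, which restrains Irf7 translation. Between them lay Oasl2 (-0.29), the exonuclease Isg20 (-0.26), Oas1a (-0.24), Cmpk2 (-0.20), Oas2 (-0.09), Ifit3 (0.00), Rsad2 (viperin, 0.01) and Ifit2 (0.08). Of the other type I responsive genes, Ifi44 was at -0.21, Trim30a at -0.12, Rtp4 at 0.06, Xaf1 at 0.07 and the ADP-ribosyltransferase Parp14 at 0.10. Their adjusted p ran from 0.250 to 0.996. Over the whole type I set, 18 estimates were negative and 12 positive.

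Several members are neighbours in the genome. Ifit2, Ifit3 and Ifit1 lie within chr19:34550694-34650009, and 1 of the 3 passed. Oas2, Oas3 and Oas1a lie within chr5:120730333-120907521, and Oas3 alone passed there. Gbp5, Gbp7, Gbp3 and Gbp2 lie within chr3:142493978-142638008 with estimates from -0.23 to 0.48. Whether neighbours differed from each other was not tested. The Ifit, Oas, Gbp and Mx families hold close copies, and how the authors' counting shared reads among them is not given in the sources used here, so values of single family members are uncertain to that extent.

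In members with an ISRE match the median averaged uptake difference was -0.22 over 12 type I genes, of which 3 passed, and -0.23 over 7 type II genes, of which 1 passed. Without a match it was -0.09 over 10 type I genes, of which 1 passed, and 0.05 over 2 type II genes, of which 0 passed. Usp18 and Mx1, which also passed, had no promoter window and are not part of this split. With so few genes these medians are descriptions of the list.

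After empty liposomes alone, only Ifitm3 passed the threshold (2.44% of members, against 1.62% of all genes lower and 1.32% higher, a share close to the background), and 6 members, all lower, had an unadjusted p under 0.05 (14.6%, against 17.9% of all genes in either direction). The call for Ifitm3 was lost without any 1 of the 3 empty DiI-negative libraries, or without empty DiI-positive replicate 1 or 2, with adjusted p up to 0.1193. With relative depth as a covariate it was lost as well (limma adjusted p = 0.0985), and Ifit1 passed in its place (-1.22, limma adjusted p = 0.0211). Libraries of 11 members did not overlap, all of them lower in DiI-positive cells (26.8%, against 14.5% of all genes lower in this way and 26.89% not overlapping in either direction). These were Isg20, Ifit1, Ifi44, Ifih1, Mx1, Oas3, Usp18, Ifi35, Ifitm3, Eif2ak2 and Cxcl10. The type II gene among them, Cxcl10, ran from 8.32 to 8.42 in DiI-positive and from 8.45 to 9.33 in DiI-negative cells, a difference of -0.62 ± 0.24 (adjusted p = 0.194). The median was -0.22 over the type I set and -0.05 over the type II set, against 0.00 over all genes tested. The other type II genes with the smallest p were Gbp2 at -0.35 ± 0.19, Gbp5 at 0.42 ± 0.27 and Irgm1 at -0.24 ± 0.15, and none passed.

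After curcumin liposomes alone, 4 members fell, Ifi35 (-0.54 ± 0.11, adjusted p = 0.0233), Usp18, Mx1 and Ifitm3, which is 9.76% of members against 1.67% of all genes lower and 1.41% higher. All 4 are type I genes, and none of the 11 type II genes passed, although Irgm1 and Igtp were among the 7 members with an unadjusted p under 0.05 (17.1%, against 18.2% of all genes in either direction). The count fell to 0 without curcumin DiI-negative replicate 1 or 2 or curcumin DiI-positive replicate 2, and to 2 without curcumin DiI-positive replicate 1. It was also 0 with depth as a covariate and when only the curcumin groups entered the fit. Libraries did not overlap for Mx1, Usp18, Ifi35, Ifitm3, Igtp and Irgm1, which were lower in DiI-positive cells (14.6%, against 10.7% of all genes), and for Gbp5, which was higher (2.44%, against 9.88%). Of the type II set, Igtp differed by -0.52 ± 0.20, Gbp5 by 0.53 ± 0.27 and Iigp1 by 0.62 ± 0.38 (adjusted p = 0.190, 0.322 and 0.437). The median was -0.12 over the type I and -0.03 over the type II set, against 0.00 over all genes, and without curcumin DiI-negative replicate 2 the type I median was 0.02.

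Markers of several cell types moved with the uptake comparison, and their part in the member results was not tested. Averaged over both liposomes, 7 of 8 Kupffer cell markers and 8 of 8 B cell markers were higher in DiI-positive libraries at the same threshold, with medians of 3.14 and 1.19. Lower there were 7 of 8 NK cell markers (median -1.54), 7 of 8 monocyte markers (median -0.90) and 5 of 8 cDC2 markers (median -0.78). Over all genes tested, 6.56% were lower and 5.54% higher. Fewer passed in the other lists. Of 8 T cell markers 2 were lower, and of 8 cDC1 markers 1 was lower and 1 higher. Of 8 pDC and 8 hepatocyte markers 1 each was higher, and of 7 neutrophil markers tested 0 passed. The summed monocyte level ran from 15.86 to 16.62 in DiI-negative and from 15.44 to 15.69 in DiI-positive libraries, and the summed NK level from 13.08 to 13.80 and from 11.31 to 12.26. Summed B cell levels ran from 15.76 to 16.27 and from 16.40 to 17.54. No listed marker was at 0 in all libraries. In sorted bulk RNA, fewer cells of a type and less RNA of a gene per cell cannot be told apart.

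The signalling genes around the members also differed in part. Of 8 interferon genes listed, 6 (4 Ifna genes and Ifnl2 and Ifnl3) were listed at 0 in every library and Ifnb1 was below the level tested. Ifng, the type II interferon, differed by -0.14 ± 0.09 (adjusted p = 0.351). Over all genes tested, 6.56% were lower and 5.54% higher in this averaged comparison. Of 8 receptor and kinase genes, 1 was lower and none higher. This was Jak2, a kinase of the type II receptor, lower in DiI-positive cells by 0.67 on the log2 scale (-0.67 ± 0.11, adjusted p = 0.00383). Jak1 at 0.15 ± 0.05, Tyk2 at -0.35 ± 0.12 and Ifngr2 at -0.20 ± 0.09 did not pass. Of 6 negative regulators, Socs3 (-0.63 ± 0.17) and Socs1 (-0.24 ± 0.07), which block the kinases, were lower (adjusted p = 0.0341 and 0.0400).

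Of 14 genes that act upstream of interferon production, 3 were lower and 2 higher, against 6.56% of all genes tested lower and 5.54% higher. The adaptor Myd88 (-0.57 ± 0.11), the factor Irf5 (-0.36 ± 0.07) and Tmem173 (STING, -0.25 ± 0.06) were lower. Mavs, the adaptor through which Ddx58 and Ifih1 signal, was higher by 0.65 ± 0.16 (adjusted p = 0.0248), and the endotoxin receptor Tlr4 was higher by 0.41 ± 0.11 (adjusted p = 0.0315). Of 26 other type I responsive genes outside the members, 4 were lower and 1 higher, against the same shares of all genes, with a median of -0.14. The ADP-ribosyltransferase Parp12 (-0.73 ± 0.10), Phf11b (-0.47 ± 0.10), Dtx3l (-0.40 ± 0.09) and Slfn5 (-0.53 ± 0.14) were the lower ones, and the helicase Helz2 (0.88 ± 0.14) was the higher one.

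Of 18 other type II responsive genes outside the members, 15 were tested, 5 were lower and 3 higher, and the median was 0.00. Over all genes tested, 6.56% were lower and 5.54% higher. The share that was lower was greater here (5 of 15) than among the outside type I genes (4 of 26). Among the members it was the reverse (1 of 11 type II and 6 of 30 type I genes). These differences between lists were not tested. Socs1 is also 1 of the 6 negative regulators above. The immunoproteasome subunit Psmb8 (-0.37 ± 0.06, adjusted p = 0.00232) and the GTPase Tgtp1 (-0.44 ± 0.10) were lower, as were Tap1, Ifi47 and Socs1. Gbp8 (0.63 ± 0.10, adjusted p = 0.00286), Cd274 (PD-L1, 0.72 ± 0.13, adjusted p = 0.00444) and the Fc receptor Fcgr4 (0.71 ± 0.15, adjusted p = 0.0125) were higher.

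Many type I members were high or low together in the same libraries. The median deviation of the 30 type I genes from their own means was highest in curcumin DiI-negative replicate 2 (0.34) and in empty DiI-negative replicates 3 and 2 (0.22 and 0.17). It was lowest in empty DiI-positive replicate 1 (-0.23), curcumin DiI-negative replicate 3 (-0.21) and curcumin DiI-positive replicate 3 (-0.13). In empty DiI-negative replicate 3, 26 of 30 type I members were above their mean, and in empty DiI-positive replicate 1 only 2 were. The DiI-negative groups therefore held both the highest libraries and 1 of the lowest, and the gates overlapped on this measure. The median deviation of the 11 type II genes ran from -0.13 in empty DiI-negative replicate 1 to 0.20 in curcumin DiI-negative replicate 2. That of all genes tested stayed between -0.02 and 0.00.

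**Figure D3:**
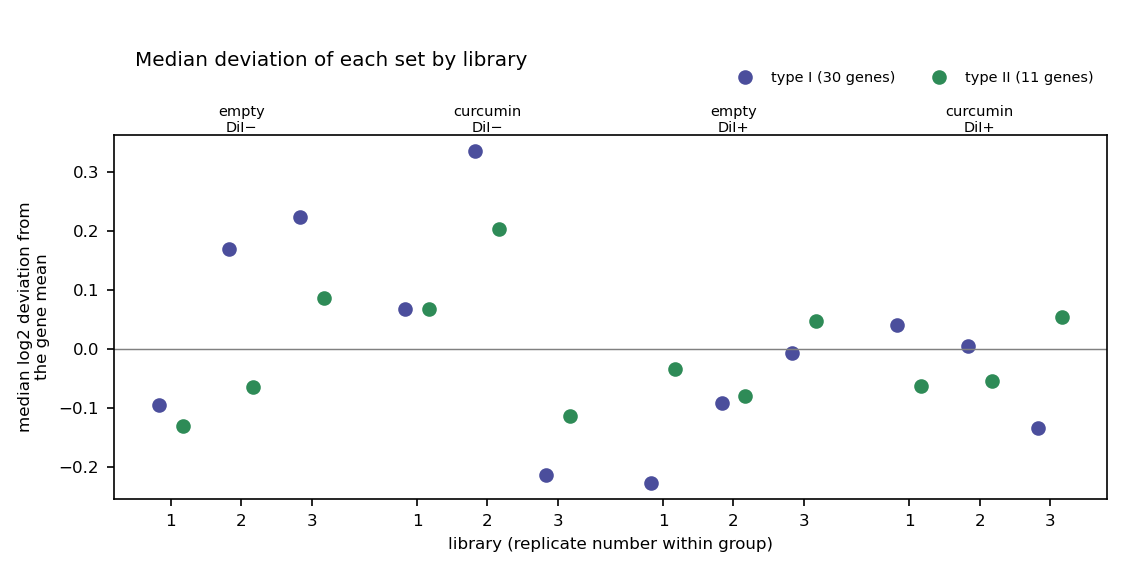
Median log2 deviation of the type I and type II members from each gene's mean over 12 libraries (vertical axis), by library (horizontal axis). The type I medians range from -0.23 to 0.34 and the type II medians from -0.13 to 0.20, and curcumin DiI-negative replicate 3 lies at -0.21 and -0.11, apart from the other libraries of its group.

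Within groups, after each group's mean was removed, the median pairwise correlation over 12 libraries was 0.42 among type I members, 0.16 among type II members and 0.16 between the sets, against 0.00 for all tested genes. These correlations describe 12 libraries that share depth and cell makeup. The members closest to the mean of the other type I genes were Rtp4 (r = 0.952), Oasl2 (0.932), Isg15 (0.914) and Ifit3 (0.909), and then Oas1a (0.892) and Irf7 (0.883). Of the type II set, Irgm1 (0.802), Igtp (0.750) and Cxcl10 (0.701) followed the type I mean, whereas Gbp5 (-0.241), Cxcl9 (-0.401) and Gbp7 (-0.013) did not. Stat2 (0.123), Irf9 (0.101), Rsad2 (0.052), Mx1 (0.042) and Ifi44 (-0.601) were the type I members with the lowest values.

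Rtp4, a chaperone of receptor transport, shows this pattern in single libraries. It stood at 11.18 in empty DiI-negative replicate 1 against 11.77 and 11.74 in replicates 2 and 3, and at 10.84 in curcumin DiI-negative replicate 3 against 11.59 and 12.09 in replicates 1 and 2. In DiI-positive cells it was 11.37, 11.61 and 11.86 after empty and 11.90, 11.58 and 11.26 after curcumin liposomes. The averaged uptake difference of Rtp4 was 0.06 ± 0.20, so the spread within groups was larger than the difference between gates. Ifi44 ran the other way, with its lowest DiI-negative value, 7.01, in curcumin replicate 2, the library in which the type I median was highest.

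Several measures moved with these libraries, and their part was not tested. Curcumin DiI-negative replicate 3 and replicate 1 of both empty groups, all with a low type I median, had the highest values of the depth index (1.164, 1.204 and 1.139). The shallowest library, empty DiI-positive replicate 2 (0.728), also had a negative type I median (-0.09), as did curcumin DiI-positive replicate 3 (depth 0.884, median -0.13). Curcumin DiI-negative replicate 3 also had a summed cDC1 level of 14.85, against 13.41 to 13.91 in the other DiI-negative libraries. Its summed pDC level was 13.66, its monocyte level 15.86 and its neutrophil level 12.60, the last 2 being the lowest of the DiI-negative gate. Curcumin DiI-positive replicate 3 had a summed cDC1 level of 14.40 and a B cell level of 16.40, the lowest of its gate. Without replicate 3 of both curcumin groups, 8 members were past the threshold in the averaged uptake comparison, 3 after empty and 6 after curcumin liposomes.

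**Figure D4:**
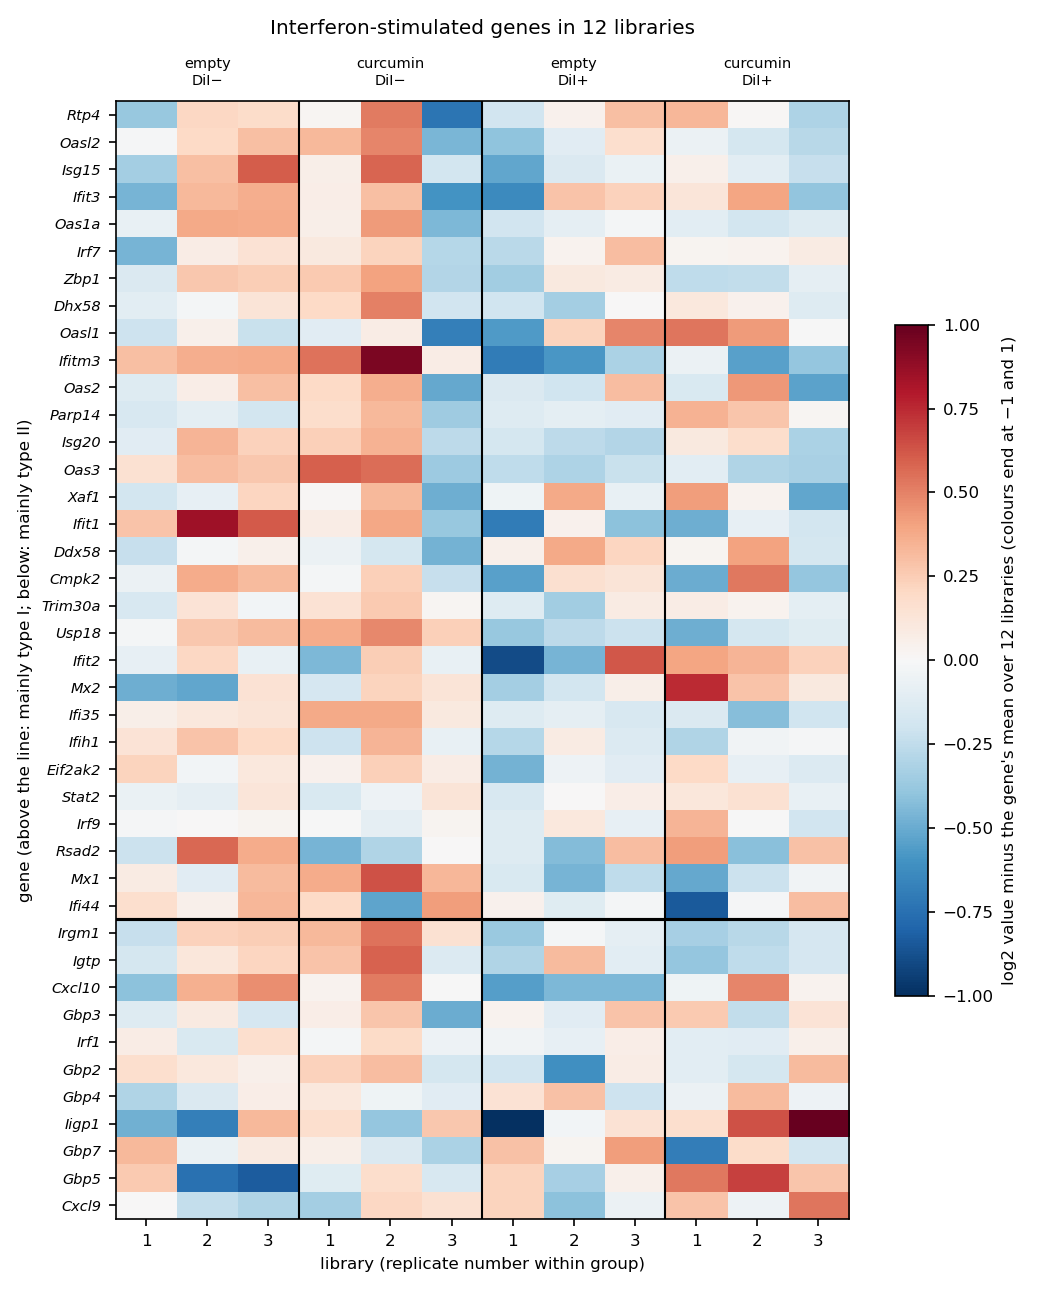
Log2 value of each member minus its mean over 12 libraries (colour, ending at -1 and 1), with libraries in columns by group and genes in rows, the type I set above the line and the type II set below it, each ordered by likeness to the mean of the other type I members. Most of the upper type I rows are low together in empty DiI-positive replicate 1, curcumin DiI-negative replicate 3 and empty DiI-negative replicate 1, although Oasl2 lies at its mean in the last, and Gbp5 and Cxcl9 at the bottom do not follow them.

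Curcumin liposomes were compared with empty liposomes in each gate. In DiI-positive cells no member passed the threshold, and no gene of all 14227 did (limma, 0 called, 0.0%). At an unadjusted p under 0.05 there were 4 members (Mx2, Cxcl10 and Iigp1 higher, Gbp7 lower) and 1165 genes. That is 9.76% of members, close to the 8.19% of all genes. The estimates ran from -0.48 to 1.01 with SE from 0.11 to 0.38, and a difference under the threshold is not shown to be absent. The median was 0.06 over the type I set, with 19 of 30 estimates positive, and -0.01 over the type II set, with 5 of 11 positive. Without empty DiI-positive replicate 1 the type I median was -0.03.

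Cxcl10 and Iigp1 had the smallest p of the members in DiI-positive cells. Cxcl10 was at 8.32, 8.42 and 8.42 after empty and at 8.82, 9.36 and 8.90 after curcumin liposomes, without overlap. The difference was 0.64 ± 0.24 (adjusted p = 0.538). The empty DiI-positive libraries, which also enter the uptake comparison after empty liposomes, were the lowest of all 12 for this gene. Iigp1, which attacks the vacuole around intracellular microbes, was at 7.10, 8.30 and 8.47 after empty and at 8.50, 8.96 and 9.43 after curcumin liposomes (1.01 ± 0.38, adjusted p = 0.539). Its lowest curcumin and highest empty libraries nearly met, and 1 empty library was far below the other two.

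Gbp5 (0.51 ± 0.27, adjusted p = 0.654), Mx2 (0.53 ± 0.22, adjusted p = 0.574) and Parp14 (0.33 ± 0.16, adjusted p = 0.629) were also higher in every curcumin library than in any empty one. Mx2 ran from 7.27 to 7.67 after empty and from 7.71 to 8.36 after curcumin liposomes. The 5 members without overlap are 12.2% of the set, against 4.93% of all genes higher in this way. In either direction 10.02% of all genes did not overlap, and no member was lower in this way. Gbp7 went the other way, from 10.52, 10.26 and 10.65 to 9.55, 10.42 and 10.05 (-0.48 ± 0.21, adjusted p = 0.584), and its groups overlapped. Ifit2 (0.57 ± 0.31) and Eif2ak2 (0.21 ± 0.14) overlapped as well. Beside these values, all 8 Kupffer cell marker estimates were positive, with a median of 0.90, and all 8 B cell marker estimates negative, with a median of -0.28. All 7 neutrophil marker estimates were negative (median -0.60), and all 8 hepatocyte and all 8 cDC1 marker estimates were positive (medians 0.33 and 0.22). None of these markers passed the threshold.

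In DiI-negative cells no member and no gene passed either (limma, 0.0%), with 2 members (Mx1 higher, Ifit1 lower) and 469 genes at an unadjusted p under 0.05. That is 4.88% of members, against 3.3% of all genes. Mx1 ran from 10.35 to 10.77 in the empty libraries and from 10.79 to 11.09 in the curcumin libraries, a difference of 0.35 ± 0.16. It was the 1 member without overlap (2.44%, against 5.73% of all genes higher in this way and 11.23% in either direction). Ifit1 differed by -0.56 ± 0.24 and Rsad2, which blocks virus replication, by -0.50 ± 0.27. Ifi35 was at 0.19 ± 0.11, Gbp5 at 0.40 ± 0.27, Gbp7 at -0.25 ± 0.21, Irgm1 at 0.26 ± 0.15 and Igtp at 0.20 ± 0.20. Adjusted p was 1 for all members named here. The median was -0.04 over the type I set and 0.11 over the type II set, and without curcumin DiI-negative replicate 3 the type I median was 0.16.

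Averaged over both gates, again no member and no gene passed (limma, 0.0%), and 5 members and 1119 genes had an unadjusted p under 0.05. That is 12.2% of members, against 7.87% of all genes. Mx2 (0.44 ± 0.16, adjusted p = 0.595), Parp14 (0.26 ± 0.11), Gbp5 (0.46 ± 0.19) and Iigp1 (0.65 ± 0.27) were the positive ones and Gbp7 (-0.36 ± 0.15) the negative one, the last 4 with an adjusted p of 0.617. Cxcl10 stood at 0.35 ± 0.17, Mx1 at 0.19 ± 0.11 and Trim30a at 0.15 ± 0.09. The curcumin effects of the 2 gates were also compared with each other, and no member or gene passed (limma, 0.0%, adjusted p = 0.999). None of the members and 527 genes (3.7% of all genes) had an unadjusted p under 0.05. The estimates with the smallest p among members were those of Ifi35 (-0.32 ± 0.15), Ifit1 (0.66 ± 0.33), Ifit2 (0.67 ± 0.44) and Rsad2 (0.68 ± 0.39) of the type I set. In the type II set they were Cxcl10 (0.59 ± 0.33), Irgm1 (-0.36 ± 0.21), Igtp (-0.44 ± 0.28) and Iigp1 (0.71 ± 0.54). No gene of the signalling lists passed in any curcumin comparison.

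**Figure D5:**
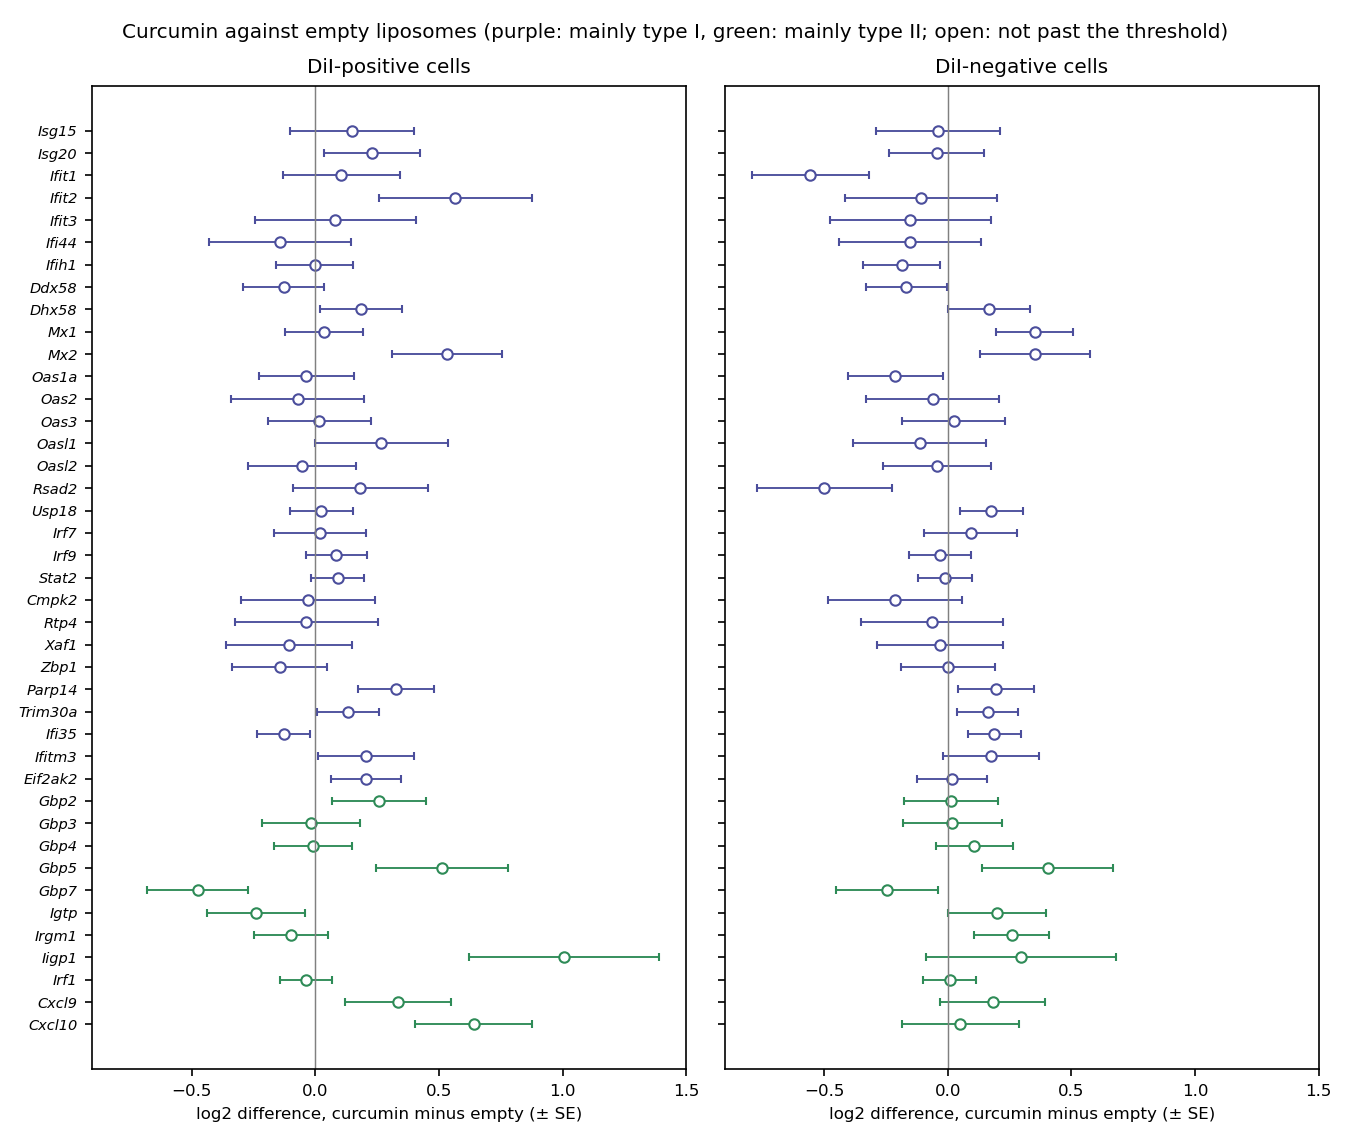
Difference between curcumin and empty liposomes for each of the 41 members (horizontal axes, log2 difference with ± SE) in DiI-positive and DiI-negative cells. All points are open, since none passed the threshold, and Iigp1 and Cxcl10 lie farthest to the right in DiI-positive cells, at 1.01 and 0.64.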

How the data were processed

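Per the labels' protocols, cDNA was amplified from low amounts of RNA (SMARTer) and Nextera XT libraries were prepared. The authors deposited 1 column of gene-level log2 values per library. Per the submitters' processing notes they used STAR 2.4.0d, DESeq2 1.8.1 and GRCm38. Which counter, gene models and transform were used was not given in the sources used here, and values (-3.62 to 19.37, with 20918 of 45792 genes at 0 in all libraries) look like a shrunken log2 scale, so differences of low genes are understated, and levels are not per length. The labels hold 24 records for 12 library codes, 2 to a code, counted as 12 libraries. Whether libraries came from separate mice is not stated, so p-values measure the spread between libraries, which may be technical.

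Genes with a mean of at least 4 were fitted with limma 3.58.1 in R 4.3.3 (group means, eBayes with trend, 8 residual and 3.51 prior degrees of freedom, Benjamini-Hochberg over 14227 genes). The fit was tested on simulated data with independent noise for each gene and library. That test does not cover genes that vary together, as the members do, or libraries that share mice. Symbols and coordinates came from GENCODE M21 (99.2% of genes with values had a symbol). Given values of their own are members past the threshold and, where fewer passed, up to 4 of each set with the smallest p. Of the pathway lists up to 4 genes with the smallest p are given. Further genes named (such as the remaining members' estimates, Tlr4, Tap1, Ifi47, Socs1 and Rtp4) were chosen after their values were seen. Members, lists and tests were chosen with earlier results of these data known. Alternatives were a replicate block, other filters, no trend, library weights, median centring, quantile normalization, depth as a covariate, only the groups compared, a smaller type II set and leaving out libraries. Some genes and sequence elements of the pathway are not reported here.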

Additional observations from a re-analysis of the deposited data

How the results depend on the processing

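No result of the members changed sign past the threshold under the alternatives run. Ifitm3 and Usp18 passed in the averaged uptake comparison under all 22 alternatives, with ranges of -0.97 to -0.76 and -0.67 to -0.49. Members past the threshold after empty liposomes (1) numbered 0 without a filter on low values, 2 with a mean of at least 6, 3 with library weights, 2 with only the groups compared, 3 without replicate 3 of both curcumin groups, 0 without the 2 shallowest libraries, and 0 to 1 when 1 library was left out. All genes there (419) numbered 263, 789 with weights, 178 with depth as a covariate, 666 without replicate 3 of both curcumin groups, 174 without the shallowest, and 85 to 263 with 1 library left out. After curcumin liposomes, members (4) numbered 1 without a filter, 0 with only the groups compared, 0 with depth, 0 without the shallowest, and 0 to 4 with 1 library left out. All genes there (437) numbered 248, 40, 62 and 74 under those settings, 706 without replicate 3 of both curcumin groups, and 114 to 1088 with 1 library left out. In the averaged comparison, members (7) numbered 4 to 8 with 1 library left out, and all genes (1722) numbered 445 with depth and 965 without the shallowest.

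No member passed in any curcumin comparison under any alternative. All genes past the threshold (0) numbered 3 in DiI-positive cells without replicate 3 of both curcumin groups and 3 without the shallowest, and 0 to 4 with 1 library left out. Averaged over gates they numbered 1, 3 and 0 to 2, and in the comparison of the 2 curcumin effects 1, 1 and 0 to 2. The type I and type II medians of the averaged uptake comparison ranged from -0.25 to -0.12 and from -0.06 to 0.07. The alternatives that leave out replicate 3 of both curcumin groups or the 2 shallowest libraries were chosen after seeing the data. The causes of these changes were not tested.

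Same-numbered DiI-positive and DiI-negative libraries under the same liposome deviated together with correlations from 0.004 to 0.33, the highest for curcumin replicate 3. Differently numbered libraries of both gates under the same liposome ran from -0.24 to 0.20. Same-numbered curcumin and empty libraries ran from -0.11 to 0.17. The main fit did not take the numbers as pairs, and whether they mark shared mice is not known from the sources used here. With the replicate block, 6 members and 1616 genes passed in the averaged uptake comparison, 1 and 405 after empty liposomes, 3 and 407 after curcumin liposomes, and none in the curcumin comparisons. The block changed which members passed. Averaged, Oas3 was lost (adjusted p = 0.0519). After empty liposomes Ifitm3 was lost (0.0587) and Ifit1 gained (0.0230), and after curcumin liposomes Mx1 (0.0540) and Ifitm3 (0.0656) were lost and Irgm1 was gained (0.0428). Reads per library are unknown, which leaves precision to the spread of 3 libraries a group.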
